A study of Homo sapiens with 8 samples.

Results

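The glutamate and GABA receptor genes form a list of 44 genes chosen by symbol, and all 44 were found among the 38592 genes of the deposited table. The list held 4 AMPA, 5 kainate and 7 NMDA receptor subunit genes, 1 delta receptor gene and 2 auxiliary genes of kainate receptors. It also held 6 metabotropic glutamate receptor genes, 11 GABA-A and 2 GABA-B receptor subunit genes, 3 genes of GABA synthesis and breakdown and 3 vesicular transporter genes. RNA-seq had been made from islet-like cells differentiated from the established cell line H1, which derives from a human embryo's stem cells. The cells were wild type (WT) or knocked out (KO) for ISL1, PAX6 or PDX1, transcription factors of pancreatic endocrine development. On day 11 of differentiation every culture received a vector, either one carrying ISL1 with blue fluorescent protein (ISL1 OE) or one carrying blue fluorescent protein alone (BFP), and all were harvested on day 18. There were 3 libraries each of ISL1 KO ISL1 OE, ISL1 KO BFP, PAX6 KO ISL1 OE, PAX6 KO BFP and PDX1 KO BFP, and 2 libraries each of PDX1 KO ISL1 OE, WT ISL1 OE and WT BFP. The edited alleles, the number of clones per line and the promoter of the vector are not given in the sources used here. The series' text calls the replicates biological without saying what separates them, so the p-values measure the spread between these libraries.

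Ionotropic glutamate receptors are cation channels: AMPA receptors carry fast excitatory current, kainate receptors are tuned by the auxiliary NETO proteins, and NMDA receptors need glycine or serine beside glutamate. Metabotropic glutamate receptors and the GABA-B receptor act through G proteins, while GABA-A receptors are chloride channels. In pancreatic islets, alpha cells can release glutamate, beta cells make GABA with glutamate decarboxylase, and endocrine cells carry receptors for both transmitters.

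ISL1, PAX6 and PDX1 each contain a homeodomain, a DNA-binding fold that as a class recognises short sites with a TAAT core. The promoter windows of 4 genes are shown: NETO1 and GRIK4 as 2 of the 3 members called in all 3 knockouts (the third is GRIK5), SLC17A6 because it was the gene lower in PDX1 KO, and GAD2 because it was the most abundant member per length. Each window runs 5′ to 3′ from 250 bases before to 50 bases after a RefSeq transcript start on GRCh38.p14. Capitals mark TAAT on either strand, that is TAAT or ATTA, with overlapping matches run together. For NETO1, which encodes a kainate receptor auxiliary protein, 2 of its 3 windows are given, chr18:72867938-72868237 and chr18:72865637-72865936, both on the minus strand:
NETO1 upstream window: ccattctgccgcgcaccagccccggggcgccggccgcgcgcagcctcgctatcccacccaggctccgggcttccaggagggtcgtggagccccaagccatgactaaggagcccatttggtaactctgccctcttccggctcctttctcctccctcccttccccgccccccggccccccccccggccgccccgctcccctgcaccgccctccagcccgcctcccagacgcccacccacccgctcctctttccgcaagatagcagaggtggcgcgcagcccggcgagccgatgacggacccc
NETO1 inner window: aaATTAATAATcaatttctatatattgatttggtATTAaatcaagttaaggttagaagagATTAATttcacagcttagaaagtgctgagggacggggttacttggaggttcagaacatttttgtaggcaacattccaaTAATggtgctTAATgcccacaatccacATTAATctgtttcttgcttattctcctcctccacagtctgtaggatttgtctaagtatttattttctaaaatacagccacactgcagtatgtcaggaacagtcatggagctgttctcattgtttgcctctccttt
For GAD2, which encodes a glutamate decarboxylase, 1 of 2 windows is given, chr10:26216524-26216823 on the plus strand:
GAD2 window: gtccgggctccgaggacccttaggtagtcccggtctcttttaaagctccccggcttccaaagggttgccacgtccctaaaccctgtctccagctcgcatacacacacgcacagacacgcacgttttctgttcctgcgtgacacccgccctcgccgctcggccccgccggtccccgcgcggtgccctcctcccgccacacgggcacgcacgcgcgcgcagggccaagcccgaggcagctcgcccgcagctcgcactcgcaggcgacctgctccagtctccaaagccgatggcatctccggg
For GRIK4, a kainate receptor subunit gene, 1 of 2 windows is given, chr11:120511498-120511797 on the plus strand:
GRIK4 window: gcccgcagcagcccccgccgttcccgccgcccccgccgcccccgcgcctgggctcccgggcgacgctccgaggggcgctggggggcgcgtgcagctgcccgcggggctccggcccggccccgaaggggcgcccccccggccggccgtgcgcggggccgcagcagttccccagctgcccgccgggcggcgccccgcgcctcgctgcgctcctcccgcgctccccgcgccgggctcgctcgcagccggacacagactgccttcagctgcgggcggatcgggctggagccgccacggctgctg
For SLC17A6, a vesicular glutamate transporter gene, the window is chr11:22338131-22338430 on the plus strand:
SLC17A6 window: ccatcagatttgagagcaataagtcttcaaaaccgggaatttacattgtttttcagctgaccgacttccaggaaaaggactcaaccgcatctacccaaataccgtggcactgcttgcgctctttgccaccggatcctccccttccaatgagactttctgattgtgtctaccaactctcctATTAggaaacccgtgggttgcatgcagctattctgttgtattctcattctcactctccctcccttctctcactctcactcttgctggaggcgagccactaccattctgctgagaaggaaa
The inner NETO1 window held 10 matches and the SLC17A6 window 1, while the upstream NETO1 window and the printed ones of GAD2 and GRIK4 held 0. Of the windows not printed, those of NETO1, GRIK4 and GAD2 held 1, 2 and 0 matches. RefSeq windows were matched for 36 of the 44 members, with 58 windows in all. TAAT on either strand stood in 23 of these 58 windows (39.7%), and in 50.2% of all 35116 windows in the table. A match is a description of the letters only, since no binding was measured here. No SLC17A6 transcript with a deposited level starts within 50 bases of the start on which its window is set. The SLC17A6 levels are thus not tied to that window.

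Each library held between 40959467 and 66818614 estimated counts, with 24721 to 27304 genes detected. Within 6 of the groups the lowest correlation between libraries was at least 0.9905. It was 0.926 in PAX6 KO ISL1 OE, where replicate 3 stood apart, and 0.899 in PDX1 KO ISL1 OE. Replicate 4 of the libraries labelled PDX1 KO ISL1 OE had 96765 TPM (a level scaled for transcript length and library total) of INS, against 1797 TPM in replicate 2, 943 to 1952 TPM in PDX1 KO BFP and 46500 to 61229 TPM in WT BFP. GCG and IAPP, which like INS encode islet hormones, had 65132 and 12.9 TPM in it, against 19528 and 0.742 TPM in replicate 2. Whether this library holds cells of the labelled genotype alone cannot be told from the files used here. Results of the ISL1 vector are therefore given with and without these 2 libraries. ISL1 RNA averaged 72.9 ± 11.2 CPM (counts scaled to a common library total) in ISL1 KO ISL1 OE, 67.5 ± 3.88 in ISL1 KO BFP, 320 ± 9.07 in WT ISL1 OE and 384 ± 141 in WT BFP (SD, n = 3, 3, 2 and 2). In PAX6 KO it averaged 194 ± 107 CPM under ISL1 OE and 176 ± 46.6 CPM under BFP, and in PDX1 KO 203 ± 107 CPM under ISL1 OE and 140 ± 17.1 CPM under BFP, so ISL1 RNA counts do not set the libraries labelled ISL1 OE apart from their controls. Whether reads of the vector's ISL1 were counted at this gene is not known from the sources used here. PAX6 RNA averaged 132 ± 30.6 CPM in PAX6 KO BFP and 189 ± 64.9 CPM in WT BFP, and PDX1 RNA 101 ± 6.44 CPM in PDX1 KO BFP and 84.5 ± 14.9 CPM in WT BFP. RNA levels do not test whether an edited allele makes protein. Of 15 islet endocrine marker genes, 13 to 15 averaged over 1 TPM in every group, while 2 or 3 of 10 glial marker genes and 2 of 6 pluripotency genes did. The summed glial level was 13.1 to 39.2 TPM over all libraries, of which ERBB3 held 8.03 to 32.5 TPM, GFAP 1.49 to 5.62 TPM and SOX10 at most 0.153 TPM. The summed pluripotency level was 2.93 to 14.1 TPM, with at most 8.99 TPM of DNMT3B, 6.29 TPM of L1TD1 and 0.177 TPM of NANOG.

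The members spanned a wide range of levels, compared here in TPM because it is scaled for transcript length. In 12 of the 44 members the highest group mean reached 10 TPM, in 17 it lay between 1 and 10 TPM, and in 15 it stayed under 1 TPM. GAD2 was first in WT BFP with 155 ± 12 TPM, followed by the AMPA subunit gene GRIA3 with 46.5 ± 4.8 TPM, NETO2 with 40.3 ± 4.6 TPM and GRIA4 with 26.6 ± 4.5 TPM (SD, n = 2). GRIA3 and NETO2 did not differ beyond their spread. GRIN3A, GABRP and NETO1 came next at 17.9 ± 4.5, 17.4 ± 18 and 16.3 ± 0.44 TPM, an order that their spread does not resolve. The NMDA receptor gene GRIN3A, whose product binds glycine, was thus present while GRIN1, the subunit that every conventional NMDA receptor contains, reached no more than 0.548 TPM in any library. GAD1, the other decarboxylase, ranged from 0.414 to 1.95 TPM over all libraries, against 105 to 355 TPM for GAD2. Of the vesicular transporters, SLC17A6 ranged from 0.770 to 8.82 TPM, whereas SLC17A7 and the GABA transporter gene SLC32A1 stayed at or below 0.233 and 0.214 TPM. The edgeR filter on low counts was passed by 41 members. GABRA3, GABRG1 and SLC17A7 failed it, with at most 11, 18 and 23 counts in a library.

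**Figure D1:**
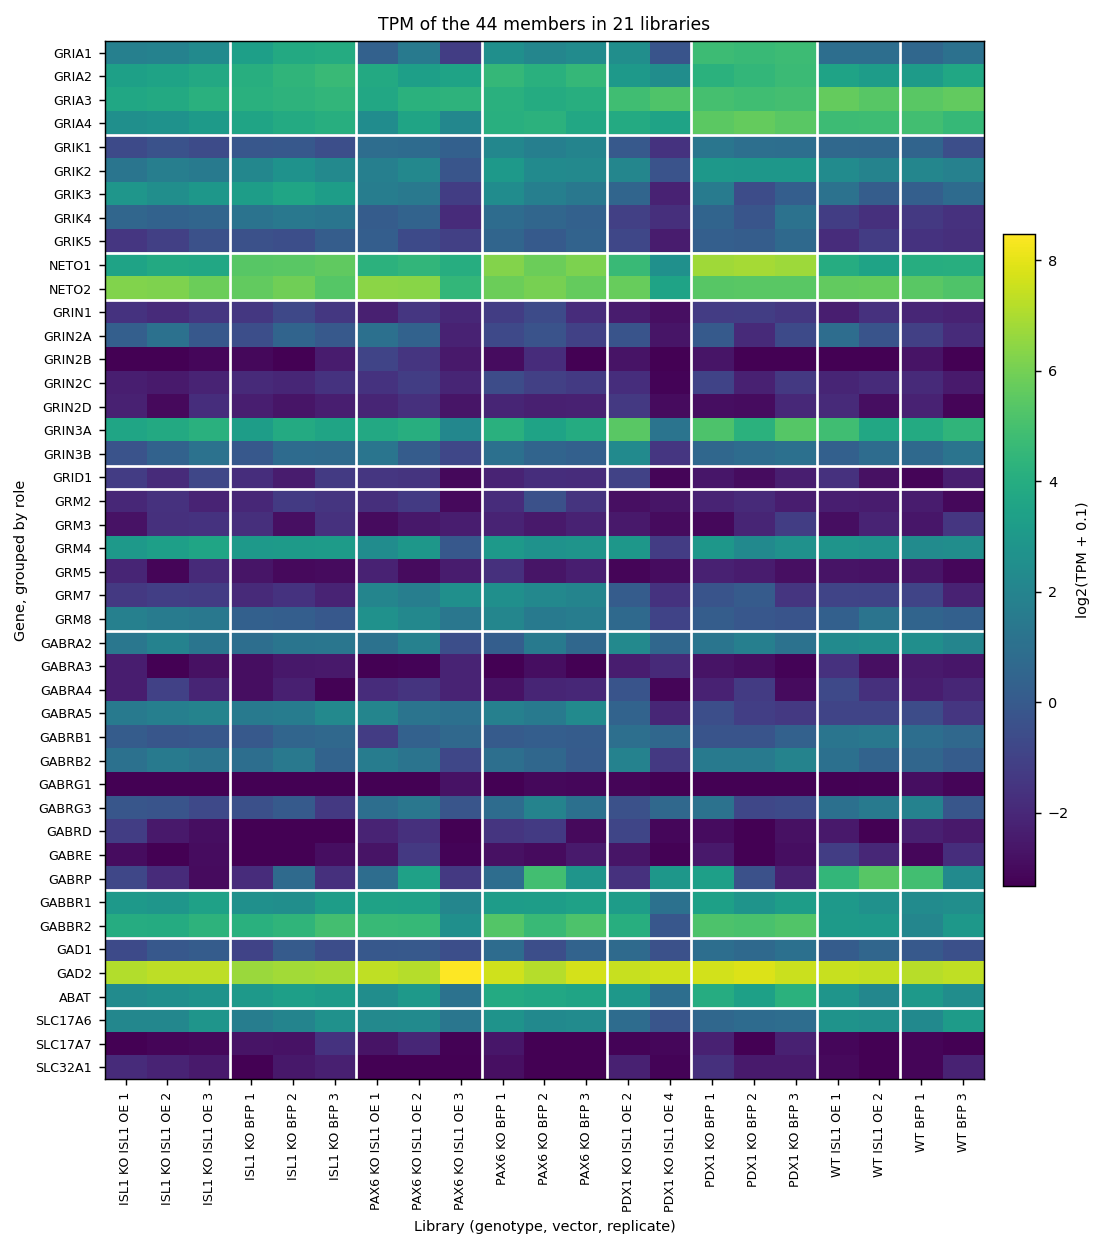
Level of each of the 44 members (rows, grouped by role) in each of the 21 libraries (columns, by group), as log2 of TPM plus 0.1. GAD2 is the brightest row throughout, the NMDA subunit rows are darker than that of GRIN3A, and the NETO1 row is brighter in the 3 knockout BFP groups than in WT.

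The GAD2 level rested largely on 1 short annotated transcript. GAD2-204, a 641-nucleotide transcript of 4 exons classed as non stop decay in GENCODE 29, held 87.0% to 92.4% of the gene's TPM in every library. GAD2-201, the protein-coding transcript of 2462 nucleotides and 17 exons, had 8.40 to 17.2 TPM. In CPM, which is not scaled for length, GAD2 averaged 77.4 in WT BFP, below GRIN3A with 85.0 and NETO2 with 84.8 and above GRIA3 with 57.1. The place of GAD2 in the order thus depends on how reads were assigned to transcripts. The 2 NETO1 transcripts with the highest mean, both protein coding, were NETO1-201 with 14.9% to 42.3% and NETO1-207 with 13.6% to 35.2% of its TPM. NETO1-201 had 38.1, 33.3 and 40.0 TPM in PDX1 KO BFP, against 4.55 and 5.63 TPM in WT BFP. NETO1-207 had 33.9, 32.4 and 32.3 TPM in PDX1 KO BFP, against 4.63 and 5.37 TPM in WT BFP, so both transcripts were higher there. NETO1-201 starts within 50 bases of the RefSeq transcript start on which the upstream window printed above is set, and NETO1-202, with 12.9% of the mean NETO1 level, within 50 bases of that of the inner window.

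**Figure D2:**
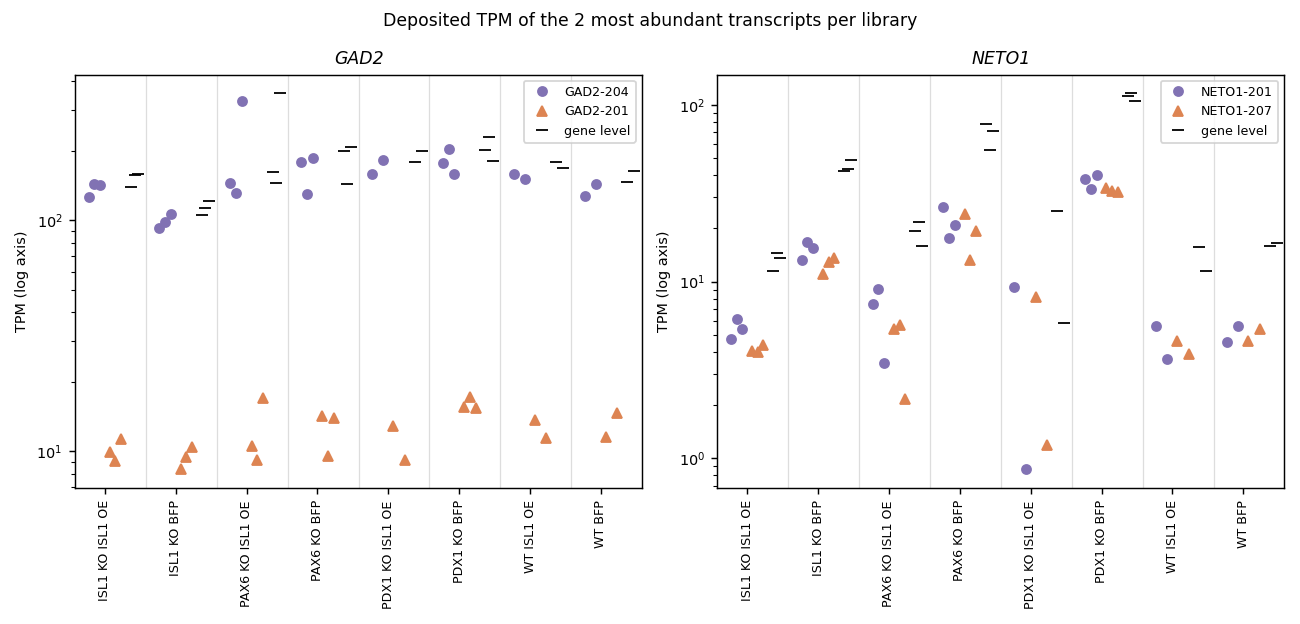
TPM (log axis) of the 2 most abundant transcripts of GAD2 (left) and NETO1 (right) in each library, by group, with the gene level as dashes. GAD2-204 lies far above GAD2-201 in every library, while NETO1-201 and NETO1-207 lie close together and are highest in PDX1 KO BFP.

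The knockouts under the BFP vector were set against WT under the same vector. All adjusted p-values come from edgeR's quasi-likelihood test with Benjamini-Hochberg adjustment over 22184 genes, and a gene is called where this is under 0.05. In ISL1 KO, 6 members were higher and 1 was lower of 41 tested, where 6.53% of all genes were called, 2.05% higher and 4.48% lower. In PAX6 KO, 8 were higher and 1 was lower, where 6.65% of all genes were called, 2.41% higher and 4.25% lower. In PDX1 KO, 6 were higher and 1 was lower, where 11.4% of all genes were called, 4.56% higher and 6.84% lower. The median log2 fold change of the members was 0.03, 0.50 and 0.58 in ISL1, PAX6 and PDX1 KO, beside 0.03, 0.00 and 0.02 over all genes. For each of these calls the knockout and WT libraries did not overlap. Here and below, a lack of overlap describes genes already selected by their call and adds no support to it. The share of all genes without overlap was not computed. The 3 comparisons share the 2 WT BFP libraries, and in bulk RNA fewer cells of a type and less RNA per cell cannot be told apart. With the 2 libraries that stood apart left out, 17, 17 and 16 members were called, where 28.5%, 28.8% and 33.3% of all genes were, among them all 7, 9 and 7 called with every library.

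**Figure D3:**
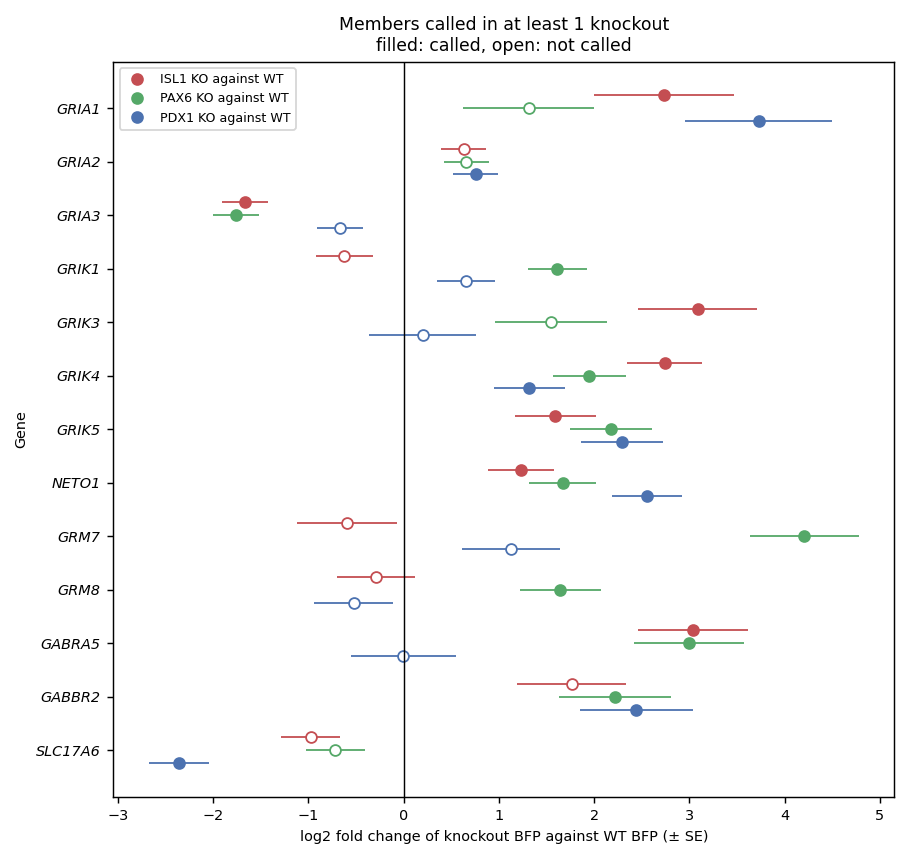
Log2 fold change (± SE) of each knockout BFP group against WT BFP for the 13 members called in at least 1 of the 3 comparisons, filled where called. GRIK4, GRIK5 and NETO1 are filled and right of 0 in all 3 knockouts, whereas GRM7 is far right in PAX6 KO alone and SLC17A6 is filled on the left in PDX1 KO.

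Among the AMPA receptor genes, GRIA1 was higher and GRIA3 was lower in knockouts. GRIA1 had 26.5, 31.5 and 39.7 CPM in ISL1 KO BFP, 13.8, 9.83 and 12.9 CPM in PAX6 KO BFP and 64.6, 62.5 and 67.5 CPM in PDX1 KO BFP, against 4.43 and 5.38 CPM in WT BFP. All 9 knockout libraries thus lay above both WT libraries, and PDX1 KO lay highest. The log2 fold change was 2.73 ± 0.73 in ISL1 KO (SE, adjusted p = 0.0344), 3.73 ± 0.77 in PDX1 KO (adjusted p = 0.0049) and 1.31 ± 0.69 in PAX6 KO (adjusted p = 0.30, not called). GRIA3, by TPM the most abundant receptor subunit gene in WT BFP, had 15.5, 18.0 and 20.6 CPM in ISL1 KO BFP and 18.2, 13.1 and 19.2 CPM in PAX6 KO BFP, against 49.6 and 64.7 CPM in WT BFP. It fell by 1.66 ± 0.24 on the log2 scale in ISL1 KO (adjusted p = 0.000588) and by 1.76 ± 0.24 in PAX6 KO (adjusted p = 0.000494). In PDX1 KO, GRIA3 had 37.4, 34.6 and 35.6 CPM, a log2 fold change of -0.67 ± 0.24 that was not called (adjusted p = 0.0837). GRIA2, whose subunit limits the calcium permeability of AMPA channels, had 40.3, 47.9 and 50.7 CPM in PDX1 KO BFP, against 23.7 and 31.2 CPM in WT BFP. Its log2 fold change there was 0.75 ± 0.24 (adjusted p = 0.0484), and in ISL1 and PAX6 KO it was 0.63 ± 0.24 and 0.66 ± 0.24 (adjusted p = 0.126 and 0.109, not called). GRIA4 averaged 25.3 ± 3.91 CPM in ISL1 KO BFP, 25.3 ± 4.07 in PAX6 KO BFP, 78.6 ± 11.3 in PDX1 KO BFP, against 52.5 ± 7.17 in WT BFP, and was called in none of the 3 (adjusted p = 0.0587, 0.0565 and 0.301). The 2 GRIA3 calls held when any 1 library was left out. GRIA1 in ISL1 KO and GRIA2 in PDX1 KO lost their calls without any 1 of the libraries compared, with adjusted p of 0.057 to 0.236 and 0.0568 to 0.379. Scaled by library size alone, these 2 calls were also lost (adjusted p = 0.0502 and 0.0606), as was GRIA2 with the set of sequencing lanes as a covariate (adjusted p = 0.0646) or with no filter (adjusted p = 0.0777). GRIA1 in PDX1 KO lost its call without WT BFP replicate 1 (adjusted p = 0.0766) or replicate 3 (adjusted p = 0.0527).

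Among the kainate receptor subunit genes, GRIK1, GRIK3, GRIK4 and GRIK5 were each called in a knockout, and GRIK2 in none. GRIK4, a subunit that forms channels only with GRIK1, GRIK2 or GRIK3, was higher in all 3 knockouts. It had 5.03, 5.65 and 5.60 CPM in ISL1 KO BFP, 3.79, 2.89 and 2.71 CPM in PAX6 KO BFP and 2.68, 1.79 and 1.60 CPM in PDX1 KO BFP, against 0.794 and 0.824 CPM in WT BFP. The log2 fold changes were 2.74 ± 0.39, 1.95 ± 0.38 and 1.32 ± 0.37 (adjusted p = 0.000545, 0.0063 and 0.0299). GRIK5, the other subunit of this kind, had 1.76, 1.51 and 2.57 CPM in ISL1 KO BFP, 3.25, 2.18 and 3.32 CPM in PAX6 KO BFP and 2.86, 2.80 and 3.82 CPM in PDX1 KO BFP, against 0.655 and 0.632 CPM in WT BFP. Its log2 fold changes were 1.59 ± 0.42, 2.17 ± 0.43 and 2.29 ± 0.43 (adjusted p = 0.033, 0.00705 and 0.0029). Both genes are low, with at most 2.51 TPM of GRIK4 and 1.51 TPM of GRIK5 in any library.

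Of the subunits that form channels by themselves, GRIK3 and GRIK1 were called in 1 knockout each. GRIK3 had 35.2, 41.6 and 33.5 CPM in ISL1 KO BFP, against 3.61 and 5.05 CPM in WT BFP, a log2 fold change of 3.09 ± 0.63 (adjusted p = 0.00677). In PAX6 KO its log2 fold change was 1.55 ± 0.58 and in PDX1 KO 0.20 ± 0.56 (adjusted p = 0.13 and 0.892, not called). GRIK1 had 6.83, 5.24 and 7.48 CPM in PAX6 KO BFP, against 2.70 and 1.54 CPM in WT BFP, a log2 fold change of 1.61 ± 0.31 (adjusted p = 0.0056). In ISL1 KO it was -0.62 ± 0.30 and in PDX1 KO 0.65 ± 0.30 (adjusted p = 0.244 and 0.189, not called). GRIK2 was called in none of the 3 comparisons, with log2 fold changes of 0.21, 0.27 and 0.74. The GRIK4 call in ISL1 KO and the GRIK5 call in PDX1 KO held when any 1 library was left out. The remaining GRIK calls were lost without 1 or more single libraries. Without WT BFP replicate 1 the adjusted p was 0.104 for GRIK3 and 0.194 for GRIK5 in ISL1 KO, 0.0847 for GRIK4 and 0.0847 for GRIK5 in PAX6 KO and 0.199 for GRIK4 in PDX1 KO. Without WT BFP replicate 3 it was 0.0609 and 0.203 for GRIK3 and GRIK5 in ISL1 KO, 0.11, 0.0741 and 0.0872 for GRIK1, GRIK4 and GRIK5 in PAX6 KO and 0.145 for GRIK4 in PDX1 KO. GRIK5 also lost its call without ISL1 KO BFP replicate 1 or 3 (adjusted p = 0.0626 and 0.125), and GRIK4 without PDX1 KO BFP replicate 1 (adjusted p = 0.104).

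NETO1 was higher in all 3 knockouts. It had 77.9, 89.3 and 90.6 CPM in ISL1 KO BFP, 139, 88.1 and 121.9 CPM in PAX6 KO BFP and 214, 212 and 219 CPM in PDX1 KO BFP, against 32.1 and 41.2 CPM in WT BFP. Every knockout library lay above both WT libraries, and the PDX1 KO libraries lay above all others. The log2 fold changes were 1.23 ± 0.35, 1.67 ± 0.36 and 2.55 ± 0.37 (adjusted p = 0.0435, 0.0105 and 0.000515). The PDX1 KO call held under every setting tried. The PAX6 KO call was lost without WT BFP replicate 1 (adjusted p = 0.133) or replicate 3 (adjusted p = 0.0681), and the ISL1 KO call without any 1 library of the 2 groups (adjusted p = 0.0776 to 0.294) or with the set of sequencing lanes as a covariate (adjusted p = 0.0583) or scaled by library size alone (adjusted p = 0.0632). NETO2, which encodes the related auxiliary protein, averaged 86.8 CPM in ISL1 KO BFP, 91.4 in PAX6 KO BFP, 71.0 in PDX1 KO BFP, against 84.8 in WT BFP, and was not called (adjusted p = 0.976, 0.901 and 0.67).

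None of the 7 NMDA receptor subunit genes was called in any knockout, nor was the delta receptor gene GRID1. GRIN3A averaged 49.1 CPM in ISL1 KO BFP, 56.7 in PAX6 KO BFP, 139 in PDX1 KO BFP, against 85.0 in WT BFP (adjusted p = 0.547, 0.701 and 0.583). GRIN1, GRIN2B, GRIN2C, GRIN2D and GRID1 lay under 1 TPM in every group mean, where SEs of the log2 fold change ran from 0.66 to 1.87, so that small differences were not detectable at this depth.

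Of the metabotropic glutamate receptor genes, GRM7 and GRM8 were higher in PAX6 KO. Both encode group III receptors, which lower cyclic AMP through inhibitory G proteins. GRM7 had 9.87, 8.10 and 7.97 CPM in PAX6 KO BFP, against 0.615 and 0.302 CPM in WT BFP, a log2 fold change of 4.21 ± 0.57 (adjusted p = 0.000466), or 18.5-fold. In ISL1 KO BFP it had 0.210, 0.546 and 0.172 CPM and in PDX1 KO BFP 1.38, 1.2 and 0.480 CPM, and was not called in either against WT (adjusted p = 0.59 and 0.19). GRM8 had 5.99, 4.32 and 5.68 CPM in PAX6 KO BFP, against 1.65 and 1.76 CPM in WT BFP, a log2 fold change of 1.65 ± 0.43 (adjusted p = 0.0289). The GRM7 call held when any 1 library was left out, whereas the GRM8 call was lost without PAX6 KO BFP replicate 1 or 3 (adjusted p = 0.0895 and 0.0803) or WT BFP replicate 1 or 3 (adjusted p = 0.193 and 0.169). GRM4, the most abundant member of the family in WT, averaged 5.26 ± 0.21 TPM there and was not called (log2 fold changes of 0.39, 0.04 and -0.09). GRM2, GRM3 and GRM5 lay under 1 TPM in every group mean and were not called.

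Among the 9 GABA-A subunit genes that passed the filter, GABRA5 alone was called. It encodes an alpha subunit found largely in extrasynaptic receptors of neurons. GABRA5 had 3.88, 2.94 and 5.35 CPM in ISL1 KO BFP and 4.34, 3.15 and 4.34 CPM in PAX6 KO BFP, against 0.516 and 0.467 CPM in WT BFP. The log2 fold changes were 3.04 ± 0.57 and 3.0 ± 0.57 (adjusted p = 0.00423 and 0.00549). In PDX1 KO BFP it had 0.734, 0.535 and 0.200 CPM, which overlapped the WT libraries. Without WT BFP replicate 1 the adjusted p was 0.0613 in ISL1 KO and 0.0799 in PAX6 KO, and without replicate 3 it was 0.0688 and 0.0854. GABRP, which encodes the pi subunit of epithelia, varied widely within groups. COL3A1, 1 of 9 listed mesenchyme markers, was also uneven, at 27.0, 171 and 162 TPM in PAX6 KO BFP and 139.5, 11.8 and 11.8 TPM in PDX1 KO BFP, against 194 and 27.7 TPM in WT BFP. In ISL1 KO BFP, COL3A1 had 11.0, 27.0 and 53.1 TPM. VIM, another of these markers, ran the other way in PDX1 KO BFP (150, 153 and 185 TPM) and WT BFP (231 and 257 TPM). In PAX6 KO BFP, VIM had 201, 246 and 212 TPM. The part of mesenchyme in the GABRP levels was not tested. GABRP had 2.86, 43.4 and 11.2 CPM in PAX6 KO BFP and 16.8, 1.12 and 0.140 CPM in PDX1 KO BFP, against 60.3 and 9.37 CPM in WT BFP. In ISL1 KO BFP, with 0.340, 2.33 and 0.373 CPM, it lay below both WT libraries but was not called (log2 fold change -5.11 ± 1.86, adjusted p = 0.116). GABRA2 had log2 fold changes of -1.21, -1.48 and -1.10 in ISL1, PAX6 and PDX1 KO and was not called in any (adjusted p = 0.155, 0.0782 and 0.165). GABRA4 and GABRB1 overlap head to head on chromosome 4, and without strand their shared reads cannot be told apart.

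Of the GABA-B receptor genes, GABBR2 was higher in PAX6 and PDX1 KO. GABBR1 provides the site that binds GABA and GABBR2 couples the pair to the G protein. GABBR2 had 39.1, 39.1 and 65.3 CPM in ISL1 KO BFP, 74.2, 46.9 and 76.4 CPM in PAX6 KO BFP and 73.1, 75.4 and 81.6 CPM in PDX1 KO BFP, against 10.1 and 18.1 CPM in WT BFP. All 9 knockout libraries lay above both WT libraries. The log2 fold changes were 2.22 ± 0.59 in PAX6 KO (adjusted p = 0.0316), 2.44 ± 0.60 in PDX1 KO (adjusted p = 0.0132) and 1.76 ± 0.58 in ISL1 KO (adjusted p = 0.0789, not called). The PDX1 KO call was lost without WT BFP replicate 1 (adjusted p = 0.172) or replicate 3 (adjusted p = 0.053). The PAX6 KO call was lost without either of these (adjusted p = 0.271 and 0.115) and without PAX6 KO BFP replicate 1 or 3 (adjusted p = 0.0876 and 0.0894). GABBR2 TPM was divided between the protein-coding GABBR2-201, with 30.7% to 76.7%, and the processed transcript GABBR2-210, with 20.3% to 65.4%. GABBR1 had log2 fold changes of 0.41, 0.81 and 0.71 in ISL1, PAX6 and PDX1 KO and was not called (adjusted p = 0.54, 0.16 and 0.189).

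The genes of GABA synthesis and breakdown were not called in any knockout against WT. GAD2 averaged 48.0 CPM in ISL1 KO BFP, 66.6 in PAX6 KO BFP, 85.0 in PDX1 KO BFP, against 77.4 in WT BFP (adjusted p = 0.453, 0.868 and 0.915). ABAT, whose product breaks GABA down, had log2 fold changes of 0.22, 0.59 and 0.90 (adjusted p = 0.815, 0.418 and 0.145). SLC17A6, which loads glutamate into vesicles, was lower in PDX1 KO. It had 2.84, 3.81 and 3.72 CPM in PDX1 KO BFP, against 12 and 23.5 CPM in WT BFP, a log2 fold change of -2.36 ± 0.32 (adjusted p = 0.000324). The call held under every setting tried. In ISL1 KO its log2 fold change was -0.98 ± 0.31 and in PAX6 KO -0.72 ± 0.31 (adjusted p = 0.0707 and 0.194, not called).

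Markers of other cell types moved beside these genes. The summed level of 6 enterochromaffin-like genes (TPH1, FEV, DDC, SLC18A1, LMX1A and CBLN1, genes of serotonin-making endocrine cells) was 2397 to 3209 TPM in ISL1 KO BFP, 1556 to 2290 TPM in PAX6 KO BFP and 3623 to 3963 TPM in PDX1 KO BFP, against 763 to 835 TPM in WT BFP. Of these 6 genes, 5, 2 and 6 were called higher in ISL1, PAX6 and PDX1 KO. Over all genes, 2.05%, 2.41% and 4.56% were called higher and 4.48%, 4.25% and 6.84% lower in these comparisons. The summed level of 20 neuronal genes was 1000 to 1312 TPM in ISL1 KO BFP, 1129 to 1721 in PAX6 KO BFP and 1267 to 1450 in PDX1 KO BFP, against 744 to 949 TPM in WT BFP. Of the 20 neuronal genes 4, 6 and 4 were called higher and 1, 0 and 1 lower, while 13 to 15 of them averaged over 1 TPM in each group. Over all libraries of both vectors, TH and SLC6A3, of dopamine neurons, reached 5.04 and 3.37 TPM, and TBR1 reached 0.191 TPM. POU4F1 had 0.716, 0.611 and 0.652 TPM in ISL1 KO BFP, against 0.050 and 0.025 TPM in WT BFP. NEFM went the other way, with 60.6, 65.9 and 89.2 TPM in ISL1 KO BFP, against 173 and 148 TPM in WT BFP. NEFL had 19.8, 21.0 and 27.0 TPM in ISL1 KO BFP, against 43.4 and 36.7 TPM in WT BFP. TH had 0.648, 0.640 and 0.281 TPM in PDX1 KO BFP, against 4.65 and 2.19 TPM in WT BFP. The summed level of 15 islet endocrine genes was 43611 to 48701 TPM in ISL1 KO BFP, 36522 to 48584 TPM in PAX6 KO BFP and 66982 to 70410 TPM in PDX1 KO BFP, against 127269 to 133334 TPM in WT BFP. INS and GCG made up most of the WT sum, and some other genes of the list were higher in the knockouts by level. The secretory granule gene CHGA had 18784 to 26910 TPM in ISL1 KO BFP, 13804 to 20982 TPM in PAX6 KO BFP and 35369 to 37607 TPM in PDX1 KO BFP, against 13230 to 15293 TPM in WT BFP, so that PAX6 KO overlapped WT. SYP and NKX2-2 lay above WT BFP in every library of the 3 knockouts under BFP, and GHRL in those of PAX6 KO and PDX1 KO. INS, GCG, SST, IAPP and SCG5 lay below WT BFP in every library of the 3 knockouts under BFP. SCG5 had 407 to 555 TPM in ISL1 KO BFP, 263 to 443 TPM in PAX6 KO BFP and 733 to 905 TPM in PDX1 KO BFP. In WT BFP it had 1360 and 1861 TPM. Of the 15 genes, 0, 2 and 1 were called higher and 5, 5 and 3 lower in ISL1, PAX6 and PDX1 KO. The summed level of 10 acinar and duct genes was 1562 to 1781 TPM in ISL1 KO BFP, 2184 to 2622 TPM in PAX6 KO BFP and 938 to 1147 TPM in PDX1 KO BFP, against 1624 to 1705 TPM in WT BFP. KRT19 alone made up most of each sum, with 1251 to 1448 TPM in ISL1 KO BFP and 1697 to 2020 TPM in PAX6 KO BFP. It had 610 to 737 TPM in PDX1 KO BFP and 1160 to 1170 TPM in WT BFP. The summed level of 9 mesenchyme genes overlapped WT BFP (329 to 670 TPM) in each knockout. The part of these markers in the receptor results was not tested.

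Other genes of the same pathways moved in both directions. Of 36 genes for auxiliary subunits and scaffolds of ionotropic glutamate receptors, 34 were tested, and 4 were higher and 2 lower in ISL1 KO, 4 higher and 2 lower in PAX6 KO and 8 higher and 4 lower in PDX1 KO. The shares of all genes called were 6.53%, 6.65% and 11.4%. The list's median log2 fold change was 0.69, 0.68 and 0.70, beside 0.03, 0.00 and 0.02 over all genes. SHANK3, which encodes a postsynaptic scaffold, was higher in all 3, with log2 fold changes of 2.08, 1.5 and 2.29 (adjusted p = 0.00183, 0.016 and 0.000874). SHISA9, an AMPA receptor auxiliary gene, was lower in ISL1 KO (-2.21, adjusted p = 0.000249) and PDX1 KO (-2.48, adjusted p = 0.000196). DLGAP2, a scaffold gene, was higher in ISL1 KO (2.30, adjusted p = 0.00263), and CNIH3 and LRRTM1, of AMPA receptor export and synaptic adhesion, were higher in PDX1 KO (2.03 and 1.63, adjusted p = 0.00299 and 0.00376). HOMER3, a scaffold gene, was higher in ISL1 KO and PAX6 KO by 0.96 and 1.11 (adjusted p = 0.0163 and 0.00781). NPTX2, a secreted pentraxin gene, was lower in PAX6 KO (-1.53, adjusted p = 0.0017). CACNG5, of another AMPA receptor auxiliary subunit, was lower in PAX6 KO (-2.35, adjusted p = 0.000516). Of 16 genes for GABA receptor auxiliary proteins, scaffolds and chloride or GABA transport, 0 were higher and 1 lower in ISL1 KO, 2 higher and 1 lower in PAX6 KO and 0 higher and 2 lower in PDX1 KO, near the shares of all genes called in ISL1 and PDX1 KO. Their median log2 fold change was -0.34, 0.29 and -0.01. KCTD16, which encodes a GABA-B receptor auxiliary subunit, was the gene lower in each, by 1.28, 1.16 and 1.32 on the log2 scale (adjusted p = 0.00662, 0.0138 and 0.0036), beside the GABA transporter gene SLC6A11 in PDX1 KO, lower by 1.54 ± 0.42 (adjusted p = 0.0247). SLC12A5, the gene of the neuronal chloride exporter KCC2, was higher in PAX6 KO by 2.05 ± 0.29 on the log2 scale (adjusted p = 0.000697), and LHFPL4, a GABA-A receptor auxiliary gene, by 1.08 ± 0.28 (adjusted p = 0.0261). Of 19 genes for glutamate uptake and metabolism, 0 were higher and 2 lower in ISL1 KO, 1 higher and 3 lower in PAX6 KO and 3 higher and 4 lower in PDX1 KO, with medians of -0.33, -0.55 and -0.62. The glutamate transporter gene SLC1A1 was lower in all 3, and fell by 2.01, 1.96 and 2.45 on the log2 scale (adjusted p = 0.00604, 0.00839 and 0.00124). The glutamine synthetase gene GLUL was lower in PAX6 KO and PDX1 KO, by 0.98 and 1.16 on the log2 scale (adjusted p = 0.00839 and 0.00166). The glutamine transporter gene SLC38A3 was higher in PAX6 KO by 1.31 (adjusted p = 0.0174), and SLC38A5 was lower in PDX1 KO by 2.08 (adjusted p = 0.0131).

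The knockouts were also compared with each other under BFP. In ISL1 KO against PAX6 KO, 0 members were higher and 3 were lower, where 2.78% of all genes were called, 0.987% higher and 1.79% lower. These were GRIK1, GRM7 and GRM8, and all 3 calls held in each setting that left out 1 library. GRM7 had 0.210, 0.546 and 0.172 CPM in ISL1 KO BFP, against 9.87, 8.10 and 7.97 CPM in PAX6 KO BFP, a log2 fold change of -4.80 ± 0.49 (adjusted p = 2.3e-05). GRIK1 had 1.60, 1.40 and 1.15 CPM in ISL1 KO BFP, against 6.83, 5.24 and 7.48 CPM in PAX6 KO BFP, a log2 fold change of -2.24 ± 0.27 (adjusted p = 0.000138). GRM8 had 1.75, 1.24 and 1.19 CPM in ISL1 KO BFP, against 5.99, 4.32 and 5.68 CPM in PAX6 KO BFP, a log2 fold change of -1.94 ± 0.37 (adjusted p = 0.00686). The groups did not overlap for any of the 3.

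In ISL1 KO against PDX1 KO, 4 members were higher and 6 were lower, where 5.71% of all genes were called, 3.32% higher and 2.39% lower. GABRA5 was higher, with 3.88, 2.94 and 5.35 CPM in ISL1 KO BFP, against 0.734, 0.535 and 0.200 CPM in PDX1 KO BFP (log2 fold change 3.04 ± 0.48, adjusted p = 0.00136). GRIK3 was higher, with 35.2, 41.6 and 33.5 CPM in ISL1 KO BFP, against 7.78, 2.39 and 4.74 CPM in PDX1 KO BFP (log2 fold change 2.89 ± 0.53, adjusted p = 0.00382). SLC17A6, with 6.63, 7.80 and 12.6 CPM in ISL1 KO BFP, against 2.84, 3.81 and 3.72 CPM in PDX1 KO BFP, was higher by 1.38 ± 0.29 on the log2 scale (adjusted p = 0.00836). The groups did not overlap for these 3 genes. GRIK4 was higher by 1.42 ± 0.31 (adjusted p = 0.0118). GRIA4 was lower, with 21.4, 25.2 and 29.3 CPM in ISL1 KO BFP, against 74.1, 91.5 and 70.1 CPM in PDX1 KO BFP (log2 fold change -1.64 ± 0.30, adjusted p = 0.00369). NETO1, GRIA3 and GRIK1 were lower, with log2 fold changes of -1.32 ± 0.30, -0.99 ± 0.22 and -1.28 ± 0.27 (adjusted p = 0.0151, 0.0123 and 0.00879). The calls of GABRA5, GRIK3, SLC17A6, GRIA4 and GRIK1 held when any 1 library was left out. GRIA3 lost its call without ISL1 KO BFP replicate 1 or 2 (adjusted p = 0.0818 and 0.0606), GRIK4 without PDX1 KO BFP replicate 2 or 3 (adjusted p = 0.0696 and 0.0748) and NETO1 without ISL1 KO BFP replicate 1 (adjusted p = 0.083) or PDX1 KO BFP replicate 3 (adjusted p = 0.0545) and with library-size scaling (adjusted p = 0.0598). GRM7 was lower with overlapping groups (-1.72 ± 0.46, adjusted p = 0.0341) and lost its call without ISL1 KO BFP replicate 1 or 3 or PDX1 KO BFP replicate 1 or 2 (adjusted p = 0.124 to 0.165). GAD1 averaged 0.885 CPM in ISL1 KO BFP and 2.17 CPM in PDX1 KO BFP (-1.29 ± 0.37, adjusted p = 0.0481), and it lost its call without any 1 of the 6 libraries other than ISL1 KO BFP replicate 2 (adjusted p = 0.089 to 0.215) and with the lane covariate, library-size scaling or no filter (adjusted p = 0.0641, 0.0942 and 0.0681).

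In PAX6 KO against PDX1 KO, 4 members were higher and 3 were lower, where 3.62% of all genes were called, 1.7% higher and 1.91% lower. GRM7 was higher, with 9.87, 8.10 and 7.97 CPM in PAX6 KO BFP, against 1.38, 1.2 and 0.480 CPM in PDX1 KO BFP (log2 fold change 3.08 ± 0.45, adjusted p = 0.000699). GABRA5, GRM8 and SLC17A6 were higher by 3.0 ± 0.48, 2.17 ± 0.38 and 1.64 ± 0.29 on the log2 scale (adjusted p = 0.00147, 0.00258 and 0.00304). GRIA4 was lower, with 24.8, 29.6 and 21.5 CPM in PAX6 KO BFP, against 74.1, 91.5 and 70.1 CPM in PDX1 KO BFP (log2 fold change -1.64 ± 0.30, adjusted p = 0.00372). GRIA3 and GRIA1 were lower, with log2 fold changes of -1.09 ± 0.22 and -2.41 ± 0.61 (adjusted p = 0.00866 and 0.0351). The libraries of PAX6 KO BFP and PDX1 KO BFP did not overlap for these 7 genes, which were selected by their call. GRIA3 lost its call without PAX6 KO BFP replicate 2 (adjusted p = 0.0819), and GRIA1 without any 1 of the 6 libraries (adjusted p = 0.0749 to 0.162) or with library-size scaling (adjusted p = 0.0806). These comparisons reuse the knockout BFP libraries set against WT above.

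**Figure D4:**
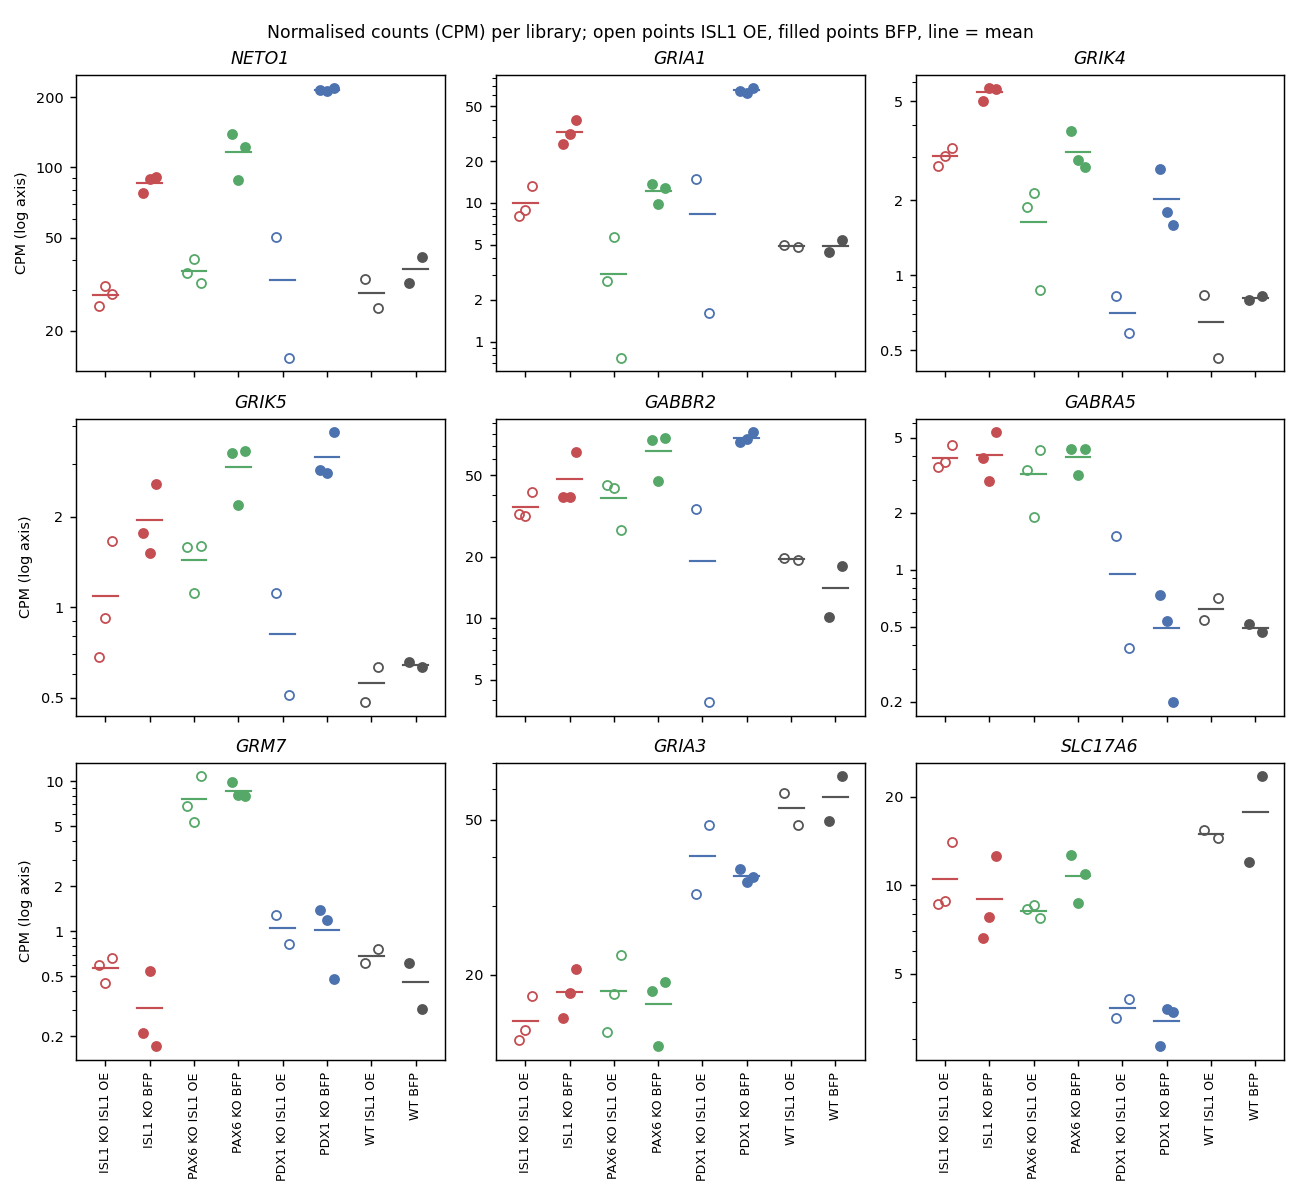
CPM (log axis) of 9 members in each library of the 8 groups, with open points for ISL1 OE, filled points for BFP and a line at the mean. NETO1, GRIA1, GRIK4 and GRIK5 lie higher in the knockout BFP groups than in WT BFP and, in the knockouts, lower under ISL1 OE than under BFP, whereas GRM7 stays high in both PAX6 KO groups.

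The ISL1 vector was compared with the BFP vector within each genotype. In ISL1 KO, 1 member was higher and 1 lower, where 0.424% of all genes were called, 0.243% higher and 0.18% lower. In PAX6 KO, 0 were higher and 1 lower, where 0.415% of all genes were called, 0.203% higher and 0.212% lower. In PDX1 KO, 0 were higher and 10 lower, where 14.4% of all genes were called, 9.09% higher and 5.34% lower. In WT, edgeR called 0 of 41 members, where 0.0361% of all genes were called, and 0 members had an unadjusted p under 0.05; DESeq2 also called 0. In ISL1 KO, PAX6 KO, PDX1 KO and WT the members' median log2 fold change was -0.05, -0.36, -0.41 and 0.15, beside -0.01, 0.05, 0.07 and -0.02 over all genes. With PAX6 KO ISL1 OE replicate 3 and PDX1 KO ISL1 OE replicate 4 left out, the counts were 2 higher and 6 lower in ISL1 KO, 0 higher and 6 lower in PAX6 KO, 3 higher and 7 lower in PDX1 KO and 0 in WT, where 5.92%, 6.02%, 11.2% and 1.69% of all genes were called.

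NETO1 was lower under the ISL1 vector in the 3 knockouts. It had 25.4, 31.1 and 28.7 CPM in ISL1 KO ISL1 OE, against 77.9, 89.3 and 90.6 CPM in ISL1 KO BFP, a log2 fold change of -1.60 ± 0.31 (adjusted p = 0.024). It had 35.4, 40.7 and 32.1 CPM in PAX6 KO ISL1 OE, against 139, 88.1 and 121.9 CPM in PAX6 KO BFP, a log2 fold change of -1.69 ± 0.31 (adjusted p = 0.0237). It had 50.5 and 15.3 CPM in PDX1 KO ISL1 OE, against 214, 212 and 219 CPM in PDX1 KO BFP, a log2 fold change of -2.71 ± 0.37 (adjusted p = 0.000394). The groups did not overlap in any of the 3. In WT it had 33.3 and 24.9 CPM under ISL1 OE, against 32.1 and 41.2 CPM under BFP, groups that overlap. With the 2 libraries that stood apart left out, the ISL1 and PAX6 KO log2 fold changes were -1.58 ± 0.16 and -1.60 ± 0.18 (adjusted p = 2.24e-05 and 0.000306). The PDX1 KO value was then -2.07, with 1 PDX1 KO ISL1 OE library left. The effect in PDX1 KO differed from that in WT by -2.38 ± 0.51 on the log2 scale (adjusted p = 0.029). With those libraries left out, and so 1 PDX1 KO ISL1 OE library, NETO1 differed by -1.75. Of the 41 members it was the only one whose difference from WT was called, where 1.37% of all genes were called. For ISL1 KO and PAX6 KO, 0 members differed from WT in their response to the vector, where 0.00451% and 0% of all genes were called. An unadjusted p under 0.05 was found for 3 and 4 members. The share of all genes at that level was not computed, so these 2 counts are not a result about the members. DESeq2 was not run on these differences. The PDX1 KO difference lost its call without any 1 of the 3 PDX1 KO BFP, 2 WT ISL1 OE or 2 WT BFP libraries (adjusted p = 0.0552 to 0.201), with log2 values of -2.16 to -2.59. Without PDX1 KO ISL1 OE replicate 2 it was -3.43, and without replicate 4 it was -1.74. The NETO1 call in ISL1 KO was lost without any 1 library of the 2 groups (adjusted p = 0.0632 to 0.161), with log2 fold changes of -1.52 to -1.67. The call in PAX6 KO was lost without ISL1 OE replicate 1 or 3 (adjusted p = 0.0927 and 0.0643) or BFP replicate 1 or 3 (adjusted p = 0.135 and 0.119).

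**Figure D5:**
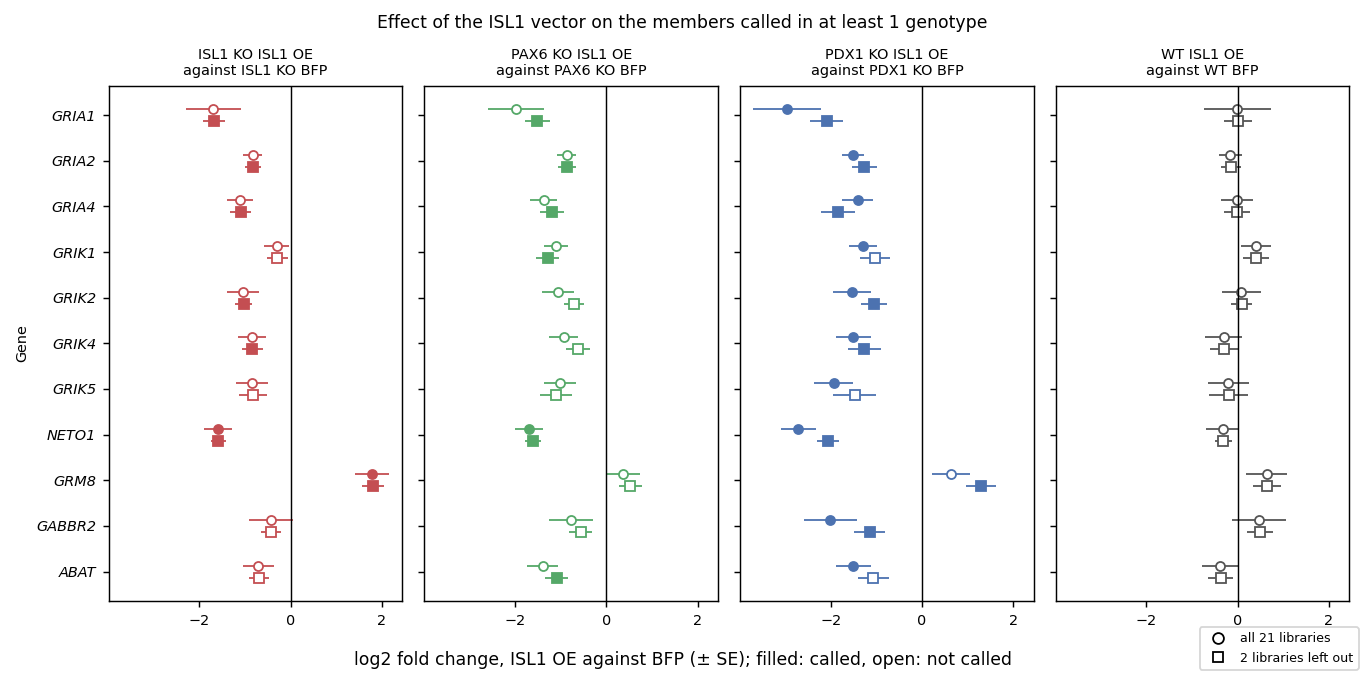
Log2 fold change (± SE) of ISL1 OE against BFP in each genotype for the 11 members called in at least 1 genotype, with circles for all 21 libraries and squares with 2 libraries left out, filled where called. In the knockouts the AMPA, kainate and NETO1 points lie left of 0, in WT no point is filled, and GRM8 lies right of 0.

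GRM8 was the member raised in ISL1 KO, with 5.28, 4.83 and 4.27 CPM under ISL1 OE, against 1.75, 1.24 and 1.19 CPM under BFP, groups that do not overlap. Its log2 fold change was 1.78 ± 0.37 (adjusted p = 0.042), and it lost its call without any 1 of the 6 libraries (adjusted p = 0.0945 to 0.246) or with the set of lanes as a covariate (adjusted p = 0.0527). Scaled by library size alone, neither GRM8 nor NETO1 was called in ISL1 KO (adjusted p = 0.0965 and 0.109), nor NETO1 in PAX6 KO (adjusted p = 0.0798). The replicate numbers of ISL1 KO and of PAX6 KO were read as pairing the libraries across vectors, which the labels do not state. With the number as a block, fitted on the 2 groups alone, 13 members were called in ISL1 KO, where 24.7% of all genes were, among them NETO1 and GRM8, and 0 in PAX6 KO, where the adjusted p of NETO1 was 0.532. With the 2 libraries that stood apart left out, the AMPA genes GRIA1, GRIA2 and GRIA4 were also lower in ISL1 KO, by 1.68 ± 0.23, 0.82 ± 0.18 and 1.10 ± 0.24 on the log2 scale (adjusted p = 0.00045, 0.0104 and 0.0108). In PAX6 KO the same 3 genes were lower by 1.51 ± 0.28, 0.86 ± 0.20 and 1.19 ± 0.27 (adjusted p = 0.00609, 0.02 and 0.0179). GRIA1 had 8.01, 8.86 and 13.3 CPM in ISL1 KO ISL1 OE, against 26.5, 31.5 and 39.7 CPM in ISL1 KO BFP. In PAX6 KO it had 2.76, 5.67 and 0.762 CPM under ISL1 OE, against 13.8, 9.83 and 12.9 CPM under BFP, and the groups did not overlap in either genotype.

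The 10 members lower in PDX1 KO under the ISL1 vector rested on 2 unlike libraries. GRIA1 had 15 CPM in replicate 2 and 1.61 CPM in replicate 4 of PDX1 KO ISL1 OE, against 64.6, 62.5 and 67.5 CPM in PDX1 KO BFP, a log2 fold change of -2.96 ± 0.74 (adjusted p = 0.0153). GRIA2 had 18.9 and 13.6 CPM, against 40.3, 47.9 and 50.7 CPM in PDX1 KO BFP, a log2 fold change of -1.51 ± 0.24 (adjusted p = 0.00129). GRIK5 had 1.11 and 0.512 CPM, against 2.86, 2.80 and 3.82 CPM in PDX1 KO BFP, a log2 fold change of -1.94 ± 0.42 (adjusted p = 0.00749). Both ISL1 OE libraries lay below the 3 BFP libraries for all 10 genes. GRIA4 had 21.6 and 37.8 CPM, against 74.1, 91.5 and 70.1 CPM in PDX1 KO BFP (log2 fold change -1.41 ± 0.34, adjusted p = 0.013). GRIK1 had 1.61 and 1.10 CPM, against 3.93, 3.12 and 3.0 CPM in PDX1 KO BFP (-1.30 ± 0.31, adjusted p = 0.0123). GRIK4 had 0.828 and 0.588 CPM, against 2.68, 1.79 and 1.60 CPM in PDX1 KO BFP (-1.5 ± 0.38, adjusted p = 0.0156). GRIA4 was the gene of these with its higher ISL1 OE value in replicate 4. ABAT had 17.5 and 8.70 CPM, against 39.7, 26.5 and 45.7 CPM in PDX1 KO BFP (-1.51 ± 0.39, adjusted p = 0.0177). GRIK2 averaged 6.10 ± 3.31 CPM under ISL1 OE and 17.7 ± 0.287 CPM under BFP (-1.54 ± 0.41, adjusted p = 0.0211), and GABBR2 19 ± 21.4 CPM under ISL1 OE and 76.7 ± 4.37 CPM under BFP (-2.01 ± 0.58, adjusted p = 0.0306). The number of members called fell without PDX1 KO ISL1 OE replicate 4 and rose without replicate 2. The share of all genes called also moved widely when single libraries were left out. With either replicate left out, that group holds 1 library. Without replicate 4 the log2 fold change of GRIA1 was -2.08 (adjusted p = 0.116), of GRIK5 -1.47 (0.126), of GABBR2 -1.13 (0.161), of GRIK4 -1.25 (0.195), of GRIK1 -1.02 (0.182), of ABAT -1.06 (0.268) and of GRIK2 -1.04 (0.301), where the parentheses hold adjusted p. Without replicate 2, GRIA4 had a log2 fold change of -0.98 (adjusted p = 0.0513). Leaving out PDX1 KO BFP replicate 1, 2 or 3 left 8, 7 and 7 calls, and the share of all genes called in these fits is not given here. GABBR2 was lost in each case (adjusted p = 0.057, 0.0608 and 0.0756) and with library-size scaling (0.0647), GRIK4 without replicate 1 (0.0565), GRIA4 and GRIK2 without replicate 2 (0.0575 and 0.0503), and GRIK2 and ABAT without replicate 3 (0.0535 and 0.0661). Fitted on the 2 groups alone, none of the 10 was called by edgeR (adjusted p = 0.229 to 0.343), nor was NETO1 in PAX6 KO (adjusted p = 0.457). With both libraries that stood apart left out of the shared fit, GRIA1, GRIA2, GRIA4, GRIK2, GRIK4, NETO1 and GABBR2 were called lower, and GRIN3B, GRM8 and GABRA5 were called higher, by 1.58 ± 0.45, 1.29 ± 0.33 and 1.64 ± 0.46 on the log2 scale. That fit has 1 PDX1 KO ISL1 OE library, which is taken to vary like the other groups. GAD2 stood out in the 2 libraries that stood apart, with 207 CPM in PAX6 KO ISL1 OE replicate 3 and 173 CPM in PDX1 KO ISL1 OE replicate 4, against 45.6 to 97.3 CPM in the other 19 libraries.

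Under the ISL1 vector the summed enterochromaffin-like markers were 1099 to 1421 TPM in ISL1 KO ISL1 OE against 2397 to 3209 TPM in ISL1 KO BFP, 694 to 903 TPM in PAX6 KO ISL1 OE against 1556 to 2290 TPM in PAX6 KO BFP, 666 to 1341 TPM in PDX1 KO ISL1 OE against 3623 to 3963 TPM in PDX1 KO BFP, and 517 to 562 TPM in WT ISL1 OE against 763 to 835 TPM in WT BFP. Of the 6 genes, 2, 2 and 5 were called lower in ISL1, PAX6 and PDX1 KO, where 0.18%, 0.212% and 5.34% of all genes were. The sums did not overlap between vectors in any genotype, and their part in the lower NETO1 and AMPA receptor levels was not tested.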

How the data were processed

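RNA-seq was measured in 21 libraries of 8 groups, each library split over 4 sequencing lanes. The libraries came from a SMART-Seq v4 and KAPA EvoPrep protocol that marks neither strand nor molecules, per the labels' protocols. Reads were aligned to GRCh38 with STAR, per the submitters' processing notes, and the sources used here name no counting tool. The authors deposited estimated counts per gene and TPM per gene and per transcript, for each lane. A further 12 columns, of 3 libraries, were not used: by name they would fall in PDX1 KO ISL1 OE, WT ISL1 OE and WT BFP, 1 in each, but the authors' deposited table that ties runs to samples does not list them.

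Estimated counts were summed over lanes (lowest correlation between lanes 0.9895) and rounded. They were scaled by TMM, filtered with filterByExpr and tested in edgeR 4.0.16 (R 4.3.3) with the quasi-likelihood test, with 1 mean per group over all 21 libraries. Benjamini-Hochberg adjustment ran over 22184 genes, and calls are at adjusted p under 0.05. CPM are TMM-scaled, and errors of fold changes are |log2 fold change| divided by the square root of F. TPM were averaged over lanes. The code was tested on simulated data.

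Alternatives were library-size scaling, DESeq2 1.42.0, no filter, each library left out, 2 outlying libraries left out, the 2 groups alone, the replicate number as a block and, added after seeing the data, the set of lanes as a covariate, the block for comparisons with WT and the differences between vector effects. Same-numbered libraries deviated together between vectors in ISL1 KO (correlations 0.43, 0.30 and 0.64) and PAX6 KO (0.26, 0.49 and 0.55), so the numbers are read as pairs there; the labels do not state a pairing.

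The members and lists were chosen with earlier results of these data known. Called members are described, at most the 8 with the smallest adjusted p per comparison, and pathway genes at most 4 per list and comparison. Some genes that this rule or the marker lists would name are not reported here. GABBR2 in PAX6 KO against WT, GRM7 and GAD1 in ISL1 KO against PDX1 KO and GABBR2 and GRIK2 under the vector in PDX1 KO were named after their values were seen. Gene and transcript models are those of GENCODE 29. With 2 or 3 libraries per group their number limits the precision; the depth was 40959467 to 66818614 counts per library.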

Additional observations from a re-analysis of the deposited data

Results flagged for a closer look

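NETO1 differed between genotypes in its response to the ISL1 vector. The log2 fold change of ISL1 OE against BFP was lower in PDX1 KO than in WT by 2.38 ± 0.51 (edgeR's test of the difference between the 2 effects, -2.38, adjusted p = 0.029), and both PDX1 KO ISL1 OE libraries lay below the 3 PDX1 KO BFP libraries. Replicate 4 of these had 96765 TPM of INS, against 943 to 1952 TPM in PDX1 KO BFP. With the outlying libraries left out, which leaves 1 PDX1 KO ISL1 OE library, the difference was -1.75. Scaled by library size alone it was -2.53 (adjusted p = 0.0733). It was -3.43 without PDX1 KO ISL1 OE replicate 2 and -1.74 without replicate 4, and it lost its call without any 1 of the 7 other libraries compared (adjusted p = 0.0552 to 0.201). The summed enterochromaffin-like markers were also lower under ISL1 OE in PDX1 KO, at 666 to 1341 TPM against 3623 to 3963 TPM under BFP, and their part in the difference was not tested.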

How the results depend on the processing

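Over all alternatives, 558 values of single members kept their call, 140 lost it and 0 changed sign. Members called in ISL1, PAX6 and PDX1 KO against WT numbered 7, 9 and 7. They were 17, 17 and 16 with 2 outlying libraries left out, 16, 16 and 16 in fits of the 2 groups alone, 18, 17 and 21 with the replicate number as a block, and 12 in ISL1 KO with DESeq2. The shares of all genes called were 6.53%, 6.65% and 11.4%, and 28.5%, 28.8% and 33.3%, 28.2%, 24.3% and 33.3%, 38.1%, 29.5% and 46.4% and, with DESeq2, 6.58% under these settings. In ISL1 against PAX6 KO, ISL1 against PDX1 KO and PAX6 against PDX1 KO the counts were 3, 10 and 7, and became 9, 18 and 14 with the outlying libraries left out, 7, 18 and 12 with the 2 groups alone and 8, 17 and 12 with the block, where the shares of all genes were 2.78%, 5.71% and 3.62%, and 10.7%, 26.1% and 20.1%, 7.91%, 26.3% and 15.5% and 11.4%, 21.8% and 7.67%. All calls of these 6 comparisons were among those under these settings. For the vector in ISL1 KO, 2 calls became 8 with the outlying libraries left out, 9 with the 2 groups alone, 13 with the block, 4 with DESeq2, 1 with the lane covariate and 0 with library-size scaling, with 0.424% of all genes and 5.92%, 7.31%, 24.7%, 1.01%, 0.37% and 0.329%. In PAX6 KO, 1 call became 6 with the outlying libraries left out, 6 with DESeq2 and 0 with the 2 groups alone, the block or library-size scaling, with 0.415% of all genes and 6.02%, 1.26%, 0%, 0% and 0.248%. In PDX1 KO, 10 calls (14.4% of all genes) became 0 (0%) with the 2 groups alone. For the difference in vector effect from WT, calls in ISL1 KO numbered 0 and became 1 (0.313% of all genes) with the outlying libraries left out, and the 1 call in PDX1 KO (1.37%) became 3 (3.28%) with them left out and 0 (0.771%) with library-size scaling. The causes were not tested.

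Leaving out 1 library gave 2 to 5, 2 to 10 and 3 to 6 calls in ISL1, PAX6 and PDX1 KO against WT, with 2, 3 and 3 without WT BFP replicate 1 and 2, 2 and 3 without WT BFP replicate 3. It gave 3 to 3, 6 to 9 and 5 to 7 between knockouts in the same order as above, 0 to 0 for the vector in WT, 0 to 0 in ISL1 KO, 0 to 3 in PAX6 KO and 3 to 16 (3.10% to 46.8% of all genes) in PDX1 KO. The differences in vector effect gave 0 to 0, 0 to 0 and 0 to 13 for ISL1, PAX6 and PDX1 KO, with 13 (35.6%) without PDX1 KO ISL1 OE replicate 2. The split of higher and lower calls with DESeq2 was 7 and 5 in ISL1 KO and 10 and 3 in PAX6 KO against WT, 1 and 3 in ISL1 against PAX6 KO, 5 and 4 in PAX6 against PDX1 KO, and 1 and 3 in ISL1 KO and 1 and 10 in PDX1 KO for the vector. With library-size scaling it was 4 and 1 in ISL1 KO against WT, 4 and 4 in ISL1 against PDX1 KO and 5 and 2 in PAX6 against PDX1 KO. That scaling moved the median log2 fold change of all genes to 0.21, 0.24 and 0.13 in ISL1, PAX6 and PDX1 KO against WT. Counts in this paragraph printed without a share of all genes called show only how the number of calls moved. They are not results about the members as a group. No paired analysis was possible for the vector in WT and PDX1 KO because those groups share 1 replicate number. Between knockouts the numbers did not pair the libraries by the measure used (3 pairs, each correlated). The knockouts share 2 numbers with WT BFP, so comparisons with WT could not meet that measure. Their correlations were 0.17 and 0.26 in ISL1 KO, -0.32 and 0.37 in PAX6 KO and 0.49 and 0.18 in PDX1 KO. In the comparisons between knockouts and with WT the block ended 0 calls.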
